A study of Homo sapiens with 20 samples.

Results

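Metallothioneins and the genes that sense and move zinc were followed in 5 human lines of T-ALL, T cell acute lymphoblastic leukaemia, given a peptide against canonical NF-kB signalling. The set holds 9 genes of the 19775 with a probe set of their own on the array, of which 13787 were tested. They are the metallothioneins MT1E, MT1F, MT1G, MT1H, MT1X and MT2A, the transcription factor gene MTF1 and the zinc transporter genes SLC30A1 and SLC39A10. All 9 were measured and all 9 passed the filter on low values. They were chosen with earlier results on these arrays known, in which the metallothioneins and SLC30A1 stood higher with the peptide. The difference between peptides is therefore given here for these genes as a description with no test, and the tests concern differences between lines, levels, and other genes.

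The lines were T-ALL1, KOPT-K, HPB-ALL, DND41 and CEM, treated for 16 h with the NEMO-binding domain (NBD) peptide or a control peptide. The NBD peptide parts the regulatory subunit of the IkB kinase complex, IKKγ (NEMO), from its catalytic subunits. Each of the 10 groups has 2 Affymetrix arrays, 20 in all, and the labels do not say whether the 2 came from separate cultures, so the spread between them may be technical. The labels give the dose as 100 with conflicting units, µM in one place and mM in another, and nothing here rests on it. Every value is a level on the log2 scale of the deposited intensity unless it is called a difference, and every difference is NBD minus control unless it names 2 lines.

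Metallothioneins are small cysteine-rich proteins that bind zinc, copper and other metals and buffer them in the cell. Their main regulator is MTF-1, the product of MTF1, a zinc finger protein that senses free zinc and binds metal response elements in the promoters of metallothionein genes and of SLC30A1. SLC30A1 (ZnT1) carries zinc out of the cell across the plasma membrane, and SLC39A10 (ZIP10) carries it in. In mouse and zebrafish, MTF-1 holds down the SLC39A10 orthologue when zinc is plentiful. Zinc also bears on T cell biology, since the tyrosine kinase LCK is held to its coreceptors by a zinc clasp.

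The core motif of the metal response element recurs in several of these promoters. The 6 metallothionein genes sit within 75.6 kb on chromosome 16 (56608584 to 56684196, GRCh38.p14), while MTF1 and SLC30A1 are on chromosome 1 and SLC39A10 on chromosome 2. RefSeq promoter windows of assembly GRCh38.p14 ran from 250 bases before to 50 after a start site. MT1E, MT1F and MT1G had no window and were not searched. Windows matched the other 6 of the 9 genes. Of these, 3 metallothioneins and SLC30A1 are printed, since their windows held at least 2 matches to the motif that MTF-1 is known to bind. The core of the element was searched as TGCACNC and TGCGCNC on both strands, and the capitals mark each match. A match on the opposite strand reads GNGTGCA or GNGCGCA.
MT1H, chr16:56669564-56669863, plus strand: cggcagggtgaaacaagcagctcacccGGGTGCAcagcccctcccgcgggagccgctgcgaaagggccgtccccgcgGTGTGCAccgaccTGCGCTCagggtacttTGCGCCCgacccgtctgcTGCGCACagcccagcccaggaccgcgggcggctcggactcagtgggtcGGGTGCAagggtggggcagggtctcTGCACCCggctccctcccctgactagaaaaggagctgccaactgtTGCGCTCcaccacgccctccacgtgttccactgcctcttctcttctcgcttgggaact
MT1X, chr16:56682220-56682519, plus strand: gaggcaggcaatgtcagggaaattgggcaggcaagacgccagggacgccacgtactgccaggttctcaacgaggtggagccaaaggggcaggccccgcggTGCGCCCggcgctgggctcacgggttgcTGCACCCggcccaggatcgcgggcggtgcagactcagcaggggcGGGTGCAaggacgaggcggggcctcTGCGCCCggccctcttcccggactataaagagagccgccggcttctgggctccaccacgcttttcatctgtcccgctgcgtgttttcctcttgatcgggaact
MT2A, chr16:56608334-56608633, plus strand: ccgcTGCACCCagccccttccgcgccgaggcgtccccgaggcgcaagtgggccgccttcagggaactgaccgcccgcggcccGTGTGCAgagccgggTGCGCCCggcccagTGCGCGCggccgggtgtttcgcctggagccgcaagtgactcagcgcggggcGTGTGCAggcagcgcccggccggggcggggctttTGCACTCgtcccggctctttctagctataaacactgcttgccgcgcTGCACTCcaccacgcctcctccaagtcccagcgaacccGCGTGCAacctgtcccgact
SLC30A1, chr1:211579112-211579411, minus strand: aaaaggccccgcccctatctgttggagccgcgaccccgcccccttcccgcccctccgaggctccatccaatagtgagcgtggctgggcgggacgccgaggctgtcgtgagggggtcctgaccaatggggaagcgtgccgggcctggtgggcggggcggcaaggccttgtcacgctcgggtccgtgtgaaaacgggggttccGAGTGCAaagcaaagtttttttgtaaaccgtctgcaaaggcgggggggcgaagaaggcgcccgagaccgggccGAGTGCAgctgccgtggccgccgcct
MT1H and MT2A each held 8 matches, MT1X held 4 and SLC30A1 held 2. No match overlapped another in these windows. Over all 35116 promoters of 300 bases in the table, 29.6% held at least 1 match, 8.6% at least 2, 0.601% at least 4 and 0.0199% (7 promoters) at least 8. In MT1H and MT1X a match began 53 bases before the start and in MT2A 54 bases before it. The MTF1 window held 0 matches. SLC39A10 has 2 windows in the table, one with 0 matches and one with 1, which lies 34 to 40 bases after that window's start site. Both windows (from 195656708 and from 195656976) lie inside the gene, which begins at 195613029 on chromosome 2. A match is a string of letters, and no binding was measured here.

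T cell markers were present on the arrays of every line. Of 10 T cell markers, 9 or 10 lay above the filter value in each line (31.96 in intensity or 5 in log2, the median over the whole table), and CD3D, a signalling chain of the T cell receptor, averaged 12.64 to 13.79. CD2 was at 4.19 in DND41, below that value. Of 6 B cell markers 3 or 4, and of 7 myeloid markers 1 or 2, lay above it. CD79A, a B cell marker, reached 10.82 in DND41. The summed level of the T cell markers ranged from 87.3 to 102.7 over the NBD groups and from 90.1 to 103.9 over the control groups. The B cell markers summed to 30.2 to 39 with NBD and 30.1 to 40.9 with control, and the myeloid markers to 28.1 to 30.7 with NBD and 28 to 30.3 with control. The deposited values of KOPT-K and T-ALL1 carry up to 7 decimals and those of the other 3 lines carry 2, so the arrays appear to have been normalized in 2 runs, and levels are tested only inside each run. The 3' minus 5' difference of the actin control probe sets (log2), which grows as RNA is degraded, stood apart on the T-ALL1 control arrays, at 3.16 and 2.05. It was 0.73 to 1.81 on the other 18 arrays.

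All 6 metallothioneins stood higher with the NBD peptide than with the control peptide in all 5 lines. The differences were large in CEM, HPB-ALL and KOPT-K and small in DND41 and T-ALL1. Averaged over the lines with equal weight they were 1.12 ± 0.06 for MT1X (SE, 2 arrays per group; 2.17-fold), 1.00 ± 0.06 for MT1H, 0.99 ± 0.05 for MT1G, 0.94 ± 0.04 for MT2A, 0.94 ± 0.04 for MT1F and 0.80 ± 0.04 for MT1E. The median of all genes tested was -0.01. Of all genes, 4.26% stood above 0 in all 5 lines, a share from which nothing is read, since the 6 were chosen on this difference. A bulk array cannot tell more transcript in every cell from far more in some cells.

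MT1X, the member with the widest range, reads as follows array by array. In HPB-ALL it stood at 11.21 and 11.20 on the NBD arrays, against 9.44 and 9.15 on the control arrays, a difference of 1.92 ± 0.14 (SE; 3.78-fold). In KOPT-K it stood at 11.54 and 11.28 on the NBD arrays, against 9.57 and 9.86 on the control arrays (1.70 ± 0.14). In CEM it stood at 12.58 and 12.67 on the NBD arrays, against 11.41 and 11.27 on the control arrays (1.28 ± 0.14). In these 3 lines every NBD array lay more than 1 log2 unit above every control array. DND41 had 10.47 and 10.28 on the NBD arrays, against 9.90 and 9.84 on the control arrays, a difference of 0.51 ± 0.14. T-ALL1 had 10.32 and 10.52 on the NBD arrays, against 10.38 and 10.09 on the control arrays, a difference of 0.18 ± 0.14. The DND41 groups were apart, and those of T-ALL1 overlapped.

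MT2A encodes metallothionein 2 and had the same order of lines at the top. It stood in HPB-ALL at 12.02 and 11.98 on the NBD arrays, against 10.48 and 10.37 on the control arrays (1.58 ± 0.09). KOPT-K had 12.44 and 12.25 on the NBD arrays, against 11.03 and 11.10 on the control arrays (1.28 ± 0.09), and CEM had 12.89 and 13.12 on the NBD arrays, against 11.83 and 11.79 on the control arrays (1.20 ± 0.09). In its normalization run CEM had the highest level with either peptide. In DND41 MT2A stood at 11.36 and 11.22 on the NBD arrays, against 10.93 and 10.84 on the control arrays (0.41 ± 0.09). In T-ALL1 it stood at 11.28 and 11.41 on the NBD arrays, against 11.12 and 11.04 on the control arrays (0.26 ± 0.09). The groups did not overlap in any line.

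MT1E, another metallothionein 1 gene, differed from these in HPB-ALL. There it stood at 8.72 and 8.63 on the NBD arrays, against 7.78 and 7.82 on the control arrays, a difference of 0.88 ± 0.08, the smallest of the 6 in that line. In KOPT-K it stood at 9.09 and 9.07 on the NBD arrays, against 7.67 and 7.67 on the control arrays (1.41 ± 0.08), and in CEM at 9.89 and 9.85 on the NBD arrays, against 8.65 and 8.66 on the control arrays (1.22 ± 0.08). MT1E thus had its largest difference in KOPT-K. DND41 had 7.98 and 7.99 on the NBD arrays, against 7.67 and 7.82 on the control arrays (0.24 ± 0.08). T-ALL1 had 8.02 and 8.16 on the NBD arrays, against 7.94 and 7.69 on the control arrays (0.28 ± 0.08), with no overlap in either.

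The remaining metallothioneins, MT1F, MT1G and MT1H, followed the same division of lines. MT1F differed by 1.72 ± 0.10 in HPB-ALL, 1.37 ± 0.10 in CEM, 1.21 ± 0.10 in KOPT-K, 0.22 ± 0.10 in DND41 and 0.17 ± 0.10 in T-ALL1. MT1G differed by 1.47 ± 0.11 in KOPT-K, 1.44 ± 0.11 in HPB-ALL, 1.43 ± 0.11 in CEM, 0.35 ± 0.11 in DND41 and 0.24 ± 0.11 in T-ALL1. MT1H differed by 1.50 ± 0.13 in HPB-ALL, 1.47 ± 0.13 in KOPT-K, 1.29 ± 0.13 in CEM, 0.47 ± 0.13 in DND41 and 0.28 ± 0.13 in T-ALL1. Over the 6 genes the difference spanned 0.88 to 1.92 in HPB-ALL, 1.21 to 1.70 in KOPT-K, 1.20 to 1.43 in CEM, 0.22 to 0.51 in DND41 and 0.17 to 0.28 in T-ALL1. Both NBD arrays lay above both control arrays for 6 of 6 in CEM, DND41, HPB-ALL and KOPT-K and for 5 of 6 in T-ALL1. Of all genes tested, 21% did so in CEM, 21.6% in DND41, 20.7% in HPB-ALL, 18.9% in KOPT-K and 18.7% in T-ALL1, and the choice of the 6 leaves nothing to read from this.

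**Figure D1:**
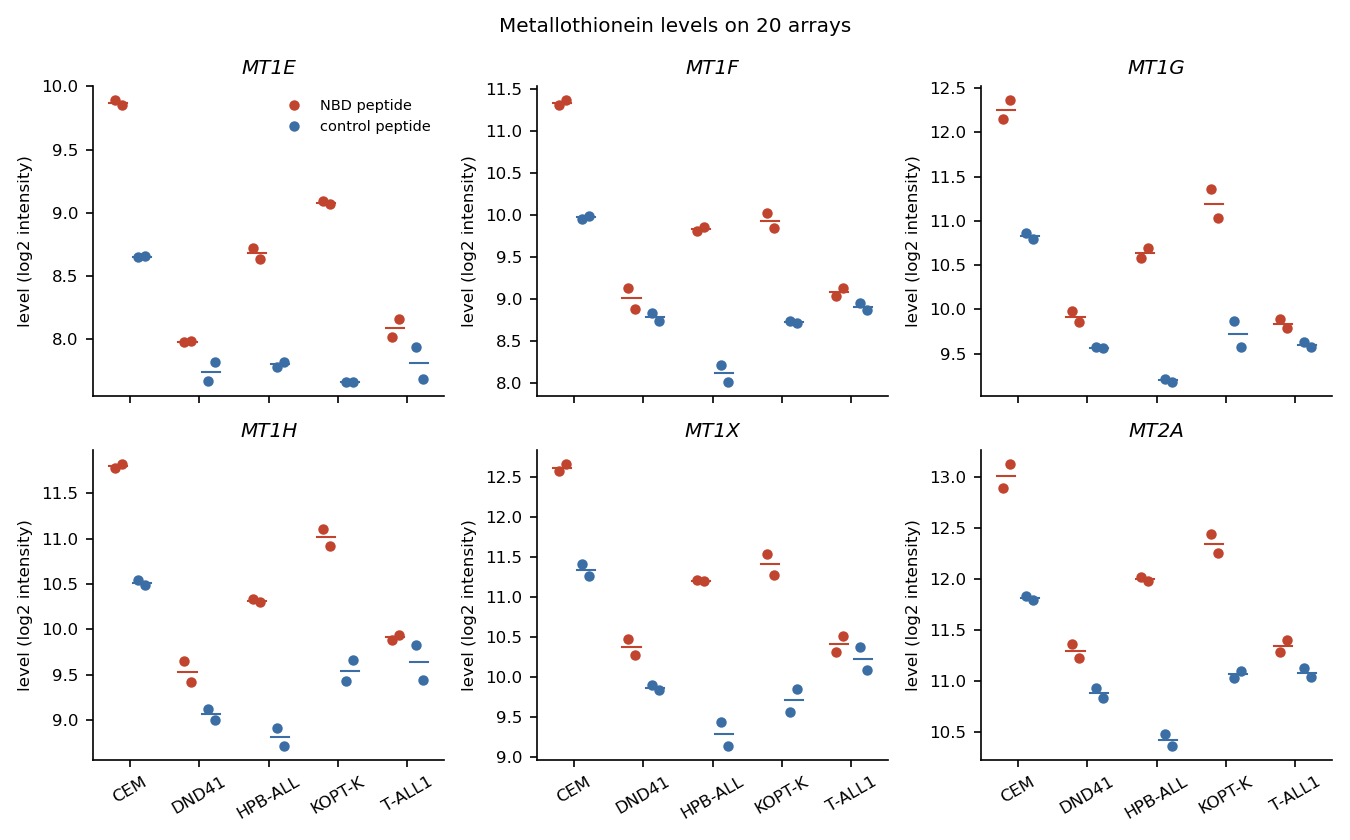
Levels (log2 intensity) of the 6 metallothioneins on each of the 20 arrays, by line on the x axis, with NBD arrays in red to the left of control arrays in blue and a bar at each pair's mean. The red and blue points lie far apart in CEM, HPB-ALL and KOPT-K and close in DND41 and T-ALL1, where they overlap for MT1X in T-ALL1.

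Whether the response differs between lines was tested with limma's moderated F-test, which sets the lines against each other and leaves out their average. The genes and this test were chosen with earlier results on these arrays known. The test is therefore not independent of that choice. It was past the threshold for 6 of the 9 genes, all of them metallothioneins, where 1.83% of all genes tested passed. The limma adjusted p was 8.7e-05 for MT1F, 0.000374 for MT1E, 5e-04 for MT2A, 0.00102 for MT1G and MT1X and 0.00391 for MT1H. It was 0.182 for SLC30A1, 0.507 for MTF1 and 0.663 for SLC39A10. SLC30A1 passed without T-ALL1 control 2 (limma adjusted p = 0.0138). Because the metallothionein probe sets may detect each other's transcripts, the 6 calls are not separate observations.

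Pairs of lines were then compared, a step added after the values above were seen. The division of the lines used below was read from these same differences, so how the counts fall along it is no separate result. The 6 genes within a pair are not separate observations either. Of 36 differences that set CEM, HPB-ALL or KOPT-K against DND41 or T-ALL1, 34 passed in limma, with sizes of 0.64 to 1.73. The exceptions were MT1X in CEM minus DND41 (0.77 ± 0.19 SE, limma adjusted p = 0.0871) and MT1E in HPB-ALL minus T-ALL1 (0.60 ± 0.12, 0.0597). The share of all genes called in such a pair was 0.986% for CEM minus DND41, 0.667% for CEM minus T-ALL1 and 0.551% for DND41 minus HPB-ALL. It was 0.689% for DND41 minus KOPT-K, 0.29% for HPB-ALL minus T-ALL1 and 0.885% for KOPT-K minus T-ALL1. Within the normalization runs, where only 18 such differences fall, 17 passed. Among CEM, HPB-ALL and KOPT-K 0 of 18 passed, with 0.0798% of all genes called for CEM minus HPB-ALL, 0.232% for CEM minus KOPT-K and 0.203% for HPB-ALL minus KOPT-K. At an unadjusted p under 0.05, 8 of these 18 differed. The share of all genes at an unadjusted p was not counted, here or for the other such counts, so none is read as an excess. Between DND41 and T-ALL1 0 of 6 passed in limma and 0 of 6 at an unadjusted p under 0.05, against 2.39% of all genes that passed. A missed threshold does not make these lines alike: CEM minus HPB-ALL for MT1X was -0.64 with a 95% interval from -1.05 to -0.22.

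T-ALL1, 1 of the 2 lines with small differences, is also the line whose control arrays had the high actin values. Its actin difference averaged 1.03 with NBD and 2.61 with control. Without T-ALL1 control 1 the metallothionein differences in that line were 0.21 to 0.47, and without T-ALL1 control 2 they were 0.04 to 0.22. In DND41 the actin difference averaged 1.27 with NBD and 1.42 with control. It was 1.76 with NBD and 1.45 with control in CEM, 1.30 with NBD and 1.37 with control in HPB-ALL, and 0.85 with NBD and 0.94 with control in KOPT-K. With the actin difference as a covariate the 6 metallothioneins passed the F-test as before, and 18 of the 60 pairwise differences passed instead of 34. Calls of NBD against control over all genes moved in that fit too. They went from 3.45% to 0.355% in T-ALL1 and rose in every other line, as in DND41 from 2.47% to 4.12%. Which pairs were lost, and the share of all genes past these tests between lines, were not counted for that fit. The part of RNA integrity in the small T-ALL1 differences was not tested.

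**Figure D2:**
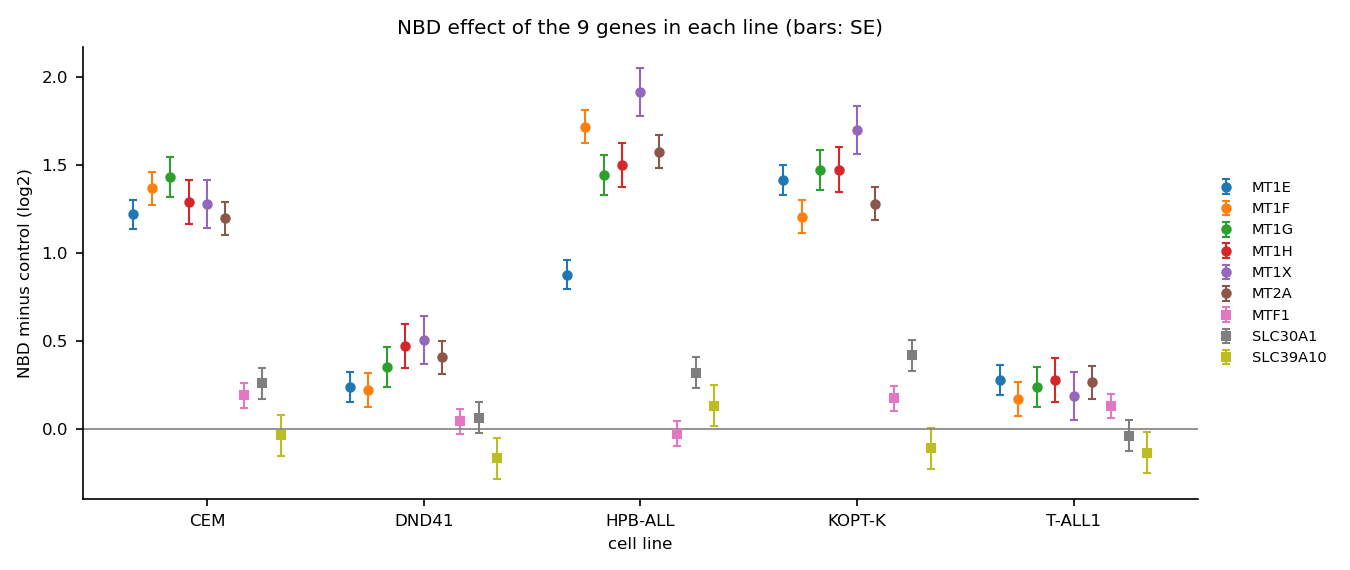
NBD minus control differences (log2) of the 9 genes in each line, with bars of 1 SE from limma. Circles are metallothioneins and squares are MTF1, SLC30A1 and SLC39A10. The circles lie between 0.88 and 1.92 in CEM, HPB-ALL and KOPT-K and between 0.17 and 0.51 in DND41 and T-ALL1, and the squares lie between -0.17 and 0.42.

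Which metallothionein is measured is less certain than that the family is. The annotation gives each metallothionein probe set to a single gene symbol, and 0 probe sets name several genes with a metallothionein among them. However, 10 probe sets of the metallothionein 1 and 2 genes, those of the 6 genes and of MT1HL1, carry the suffix _x_at, which Affymetrix gives where probes may hybridise to other sequences. Across the 45 pairs of these probe sets, levels centred on each line correlated at 0.80 to 0.99 over the 20 arrays (median 0.96). This is a description over arrays that share lines and peptides. One probe set listed under MT1X, 204326_x_at, has as its reference accession that of MT1L, a transcribed pseudogene of the cluster, in the gene table of GRCh38.p14. Its difference was 2.16 ± 0.14 in HPB-ALL and 0.06 ± 0.14 in T-ALL1.

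Other probe sets of the same gene gave both near-equal and unequal values. For MT1E, 212859_x_at spread the lines further than 216336_x_at, which stands for the gene above. It stood in KOPT-K at 9.15 and 8.95 on the NBD arrays, against 7.16 and 7.27 on the control arrays (1.83 ± 0.12). In HPB-ALL it stood at 7.35 and 7.10 on the NBD arrays, against 6.57 and 6.71 on the control arrays (0.58 ± 0.12). The HPB-ALL difference was thus smaller than that in KOPT-K on this probe set. For MT1F, 213629_x_at gave 0.58 ± 0.15 in HPB-ALL and 0.61 ± 0.15 in KOPT-K, against 1.72 ± 0.10 and 1.21 ± 0.10 on 217165_x_at. In CEM both were above 1, at 1.20 ± 0.15 and 1.37 ± 0.10. The probe set 210472_at of MT1G carries no such suffix, and its level of 3.23 to 4.10 on all 20 arrays lay below the filter value. Its differences ran from -0.14 to 0.33. Whether MT1G itself was transcribed cannot be told apart from signal of its neighbours on 204745_x_at.

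**Figure D3:**
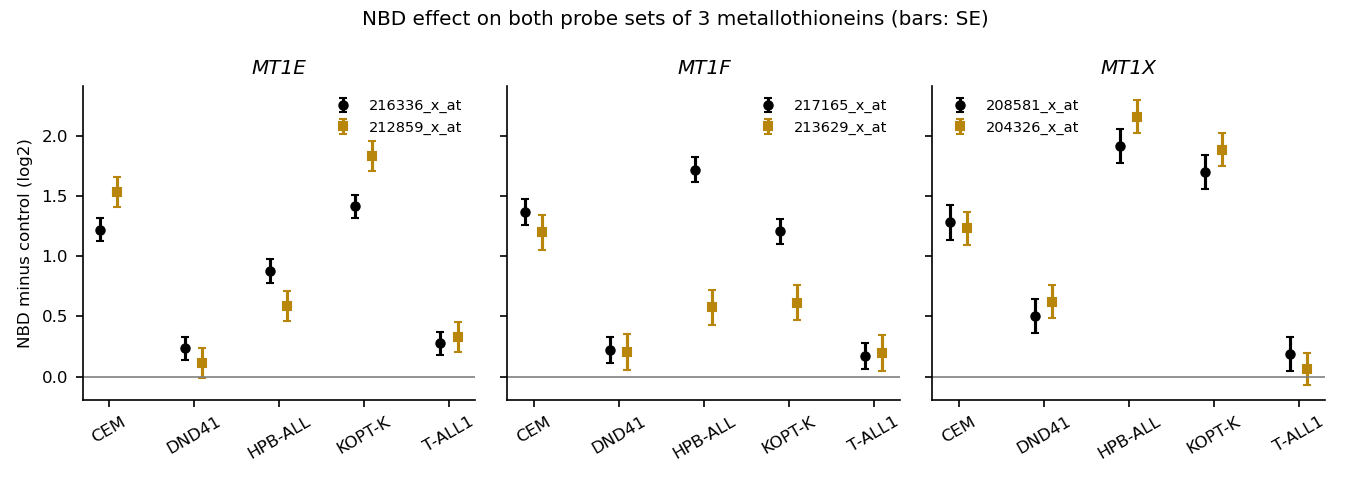
NBD minus control differences (log2, bars of 1 SE) by line for both probe sets of MT1E, MT1F and MT1X. Black circles are the probe set that stands for the gene and brown squares the other. The probe sets part most for MT1F in HPB-ALL, at 1.72 and 0.58.

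Of the other metallothioneins, MT1HL1, a copy of the metallothionein 1 type on chromosome 1, had an average difference of 0.92 ± 0.04, given with no test because earlier results had shown it. It also differed between lines (limma moderated F-test, adjusted p = 0.00132), with 1.40 in HPB-ALL, 1.28 in KOPT-K, 1.19 in CEM, 0.50 in DND41 and 0.23 in T-ALL1. Its probe set is of the _x_at kind too, so its signal may be that of the members. MT3, the metallothionein known from brain, averaged a level of 5.32 and a difference of -0.01 ± 0.07 (limma adjusted p = 0.973). MT4, known from stratified epithelium, averaged 5.56 and 0.13 ± 0.05 (limma adjusted p = 0.123). MT1M stood at 2.87 to 3.21 on all arrays and was not tested. The probe sets of MT3, MT4 and MT1M have no _x_at suffix.

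Levels without the NBD peptide also set the lines apart. Among CEM, DND41 and HPB-ALL, limma's moderated F-test on the control arrays passed for 8 of the 9 genes (all but MTF1), against 61.9% of all genes. Pairs among the 3 lines were called for 42% of all genes in CEM minus DND41, 49% in CEM minus HPB-ALL and 47.5% in DND41 minus HPB-ALL. CEM had the highest metallothionein levels of the 3, past the threshold against both others for 6 of 6. MT1X was 1.47 ± 0.14 higher in CEM than in DND41 (SE, n = 2 each; limma adjusted p = 7.37e-07) and 2.05 ± 0.14 higher than in HPB-ALL (1.88e-08). DND41 lay above HPB-ALL for MT1X, by 0.58 ± 0.14 (limma adjusted p = 0.00291), and for MT1F, MT1G and MT2A, by 0.67, 0.37 and 0.46 (4.24e-05, 0.0156 and 0.000881). DND41 and HPB-ALL did not differ past the threshold for MT1E (-0.06 ± 0.08, limma adjusted p = 0.615) or MT1H (0.25 ± 0.13, 0.127). With NBD the order of these 2 lines was the reverse for MT1X, at 11.21 and 11.20 in HPB-ALL against 10.47 and 10.28 in DND41. That difference in level was not tested, and it includes the NBD difference on which the gene was chosen. CEM had both high control levels and large differences, and a link between them was not tested.

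In the other run, T-ALL1 minus KOPT-K passed for 3 of the 9 genes, against 54.2% of all genes. MT1X was higher in T-ALL1 by 0.52 ± 0.14 (limma adjusted p = 0.00502). That call was lost without T-ALL1 control 1 (0.37, limma adjusted p = 0.0666) or KOPT-K control 1 (0.38, 0.0717). With the actin difference as a covariate it turned to -0.11 (limma adjusted p = 0.761). The other 5 metallothioneins gave -0.12 to 0.18 (limma adjusted p = 0.128 to 0.903). The NBD minus control differences of the same lines were further apart, with KOPT-K minus T-ALL1 at 1.02 to 1.52 (limma adjusted p = 0.000757 to 0.00657).

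MTF1 and the 2 transporters had smaller differences than any metallothionein on average. SLC30A1 had an average difference of 0.20 ± 0.04 and stood higher with NBD in 4 of the 5 lines. It stood in KOPT-K at 10.39 and 10.49 on the NBD arrays, against 9.97 and 10.07 on the control arrays (0.42 ± 0.09, 1.34-fold). In HPB-ALL it stood at 11.33 and 11.31 on the NBD arrays, against 10.98 and 11.02 on the control arrays (0.32 ± 0.09). CEM had 11.66 and 11.57 on the NBD arrays, against 11.32 and 11.40 on the control arrays (0.26 ± 0.09). These are the 3 lines with the large metallothionein differences, but SLC30A1 missed the threshold of the F-test between lines (limma adjusted p = 0.182). DND41 had 10.62 and 10.60 on the NBD arrays, against 10.54 and 10.55 on the control arrays (0.06 ± 0.09). T-ALL1 had 11.27 and 11.39 on the NBD arrays, against 11.52 and 11.22 on the control arrays (-0.04 ± 0.09). The T-ALL1 control arrays lay on both sides of the NBD arrays there, and the difference was 0.11 without control 1 and -0.19 without control 2. Of 30 pairwise differences between lines for MTF1, SLC30A1 and SLC39A10, 0 passed (lowest limma adjusted p = 0.109). By pair, 0.0798% to 2.39% of all genes passed.

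Another probe set of SLC30A1, 228181_at, gave 0.62 ± 0.15 in KOPT-K, 0.26 ± 0.15 in CEM, 0.22 ± 0.15 in DND41, 0.22 ± 0.15 in HPB-ALL and -0.06 ± 0.15 in T-ALL1. DND41 thus did not lie below HPB-ALL on this probe set. The remaining one, 242716_at, lay below the filter value. SLC30A1 levels differed widely between lines. On control arrays T-ALL1 was 1.35 ± 0.09 above KOPT-K (limma adjusted p = 1.11e-08), CEM was 0.81 ± 0.09 above DND41 (3.46e-06) and 0.36 ± 0.09 above HPB-ALL (0.00347), and DND41 minus HPB-ALL was -0.45 ± 0.09 (0.000628).

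MTF1 had an average difference of 0.10 ± 0.03. It stood in CEM at 8.68 and 8.80 on the NBD arrays, against 8.48 and 8.62 on the control arrays (0.19 ± 0.07). KOPT-K had 8.32 and 8.28 on the NBD arrays, against 8.12 and 8.14 on the control arrays (0.17 ± 0.07), and T-ALL1 had 8.41 and 8.38 on the NBD arrays, against 8.27 and 8.26 on the control arrays (0.13 ± 0.07). The NBD arrays were above the control arrays in these 3 lines, as for 21% of all genes in CEM, 18.9% in KOPT-K and 18.7% in T-ALL1. DND41 gave 0.04 ± 0.07 and HPB-ALL -0.03 ± 0.07, both with overlap. Other probe sets of MTF1 read differently. The probe sets 205322_s_at and 205323_s_at averaged 0.13 ± 0.05 and 0.02 ± 0.06, and in T-ALL1 both were below 0, at -0.09 and -0.21. In HPB-ALL they gave 0.17 and 0.09, with no overlap of the groups on 205322_s_at, against -0.03 on the probe set that stands for the gene. Its control level was 8.13 to 8.55 over the 5 lines, across both normalization runs. The F-test among CEM, DND41 and HPB-ALL missed the threshold for it (limma adjusted p = 0.0514), though it passed without any 1 of 4 arrays (0.0331 to 0.0441) and with the actin covariate (0.0463). CEM minus HPB-ALL was 0.18 ± 0.07 for MTF1 (limma adjusted p = 0.0439). T-ALL1 minus KOPT-K was 0.13 ± 0.07 (limma adjusted p = 0.135). The arrays measure transcript, and MTF-1 is known to be regulated by zinc binding and entry into the nucleus.

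SLC39A10 had an average difference of -0.06 ± 0.05, and its lines did not share a direction. In HPB-ALL it stood at 8.41 and 8.52 on the NBD arrays, against 8.38 and 8.29 on the control arrays (0.13 ± 0.12). In DND41 it stood at 9.71 and 9.70 on the NBD arrays, against 9.91 and 9.83 on the control arrays (-0.17 ± 0.12), and in KOPT-K at 8.60 and 8.64 on the NBD arrays, against 8.79 and 8.68 on the control arrays (-0.11 ± 0.12). The groups were apart in these 3 lines, upward in HPB-ALL (as for 20.7% of all genes) and downward in the others. Both NBD arrays lay below both control arrays for 27.8% of all genes in DND41, 23.6% in KOPT-K, 28.2% in CEM, 29.1% in HPB-ALL and 24% in T-ALL1. CEM gave -0.04 ± 0.12 and T-ALL1 -0.14 ± 0.12, with overlap. Its level differed more between lines than between peptides. On control arrays DND41 was 1.53 ± 0.12 above HPB-ALL (limma adjusted p = 6.43e-08), and CEM minus DND41 was -1.80 ± 0.12 (1.37e-08). T-ALL1 minus KOPT-K was -0.77 ± 0.12 (limma adjusted p = 5.93e-05). DND41, the line with the highest SLC39A10 level in its run, was 1 of the 2 lines with small metallothionein differences. The other, T-ALL1, had the lower level in its run. Any link between SLC39A10 level and the metallothionein differences was not tested.

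**Figure D4:**
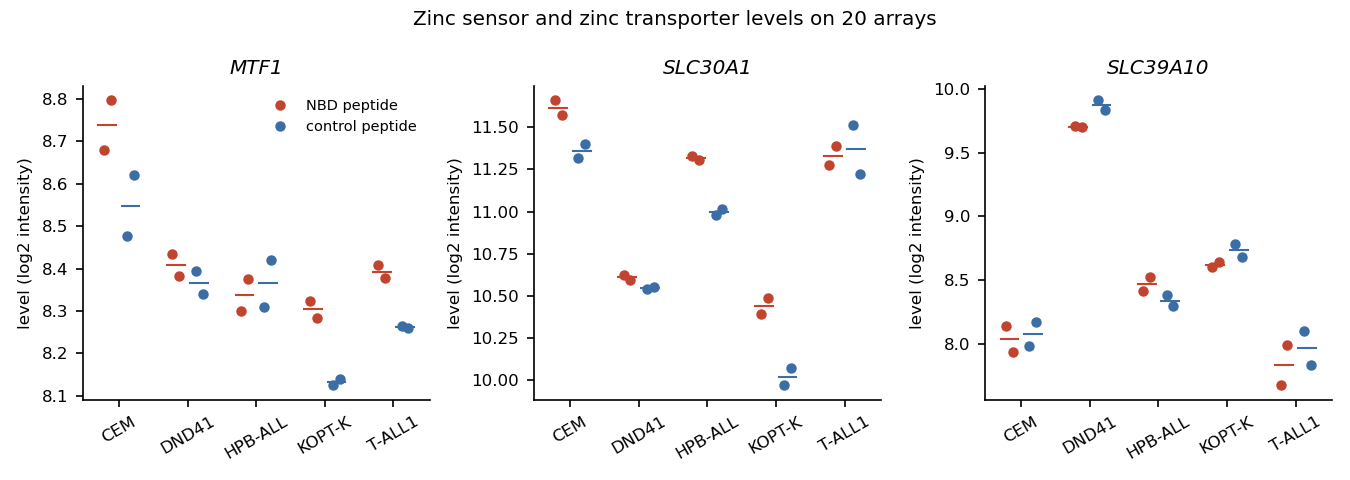
Levels (log2 intensity) of MTF1, SLC30A1 and SLC39A10 on each array, with NBD arrays in red to the left of control arrays in blue and a bar at each pair's mean. SLC30A1 shows a step between peptides in CEM, HPB-ALL and KOPT-K, and SLC39A10 differs between lines, with DND41 highest, more than between peptides. Each panel has its own scale.

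The rest of the zinc machinery was read from lists of metal-handling genes. Of 23 zinc transporters outside the set 19 were tested, and limma called 0 higher (1 at an unadjusted p under 0.05) and 2 lower, with a median difference of -0.037. Over all genes tested, 2.24% rose and 6.14% fell in limma, which is 309 and 847 of 13787 genes. SLC39A11, a zinc importer of the ZIP family, fell by 0.30 (SE 0.05; limma adjusted p = 0.00195), and it was below 0 in all 5 lines. SLC39A3, a zinc importer of the plasma membrane, fell by 0.13 (SE 0.04; limma adjusted p = 0.0453). The SLC39A3 call was lost without any 1 of 17 arrays (limma adjusted p up to 0.101), and its mean over all probe sets was 0.006. Of the 8 exporters tested, 0 passed on average in limma and 1 was lower at an unadjusted p under 0.05. The largest on average was TMEM163 at -0.08 ± 0.07, at a level of 4.89 near the filter value. By line, 1 exporter was called. SLC30A4 was lower in T-ALL1 (-0.58 ± 0.14, limma adjusted p = 0.039), where 2.3% of all genes fell. With the actin covariate 0 listed genes were called in that line.

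Other genes reported as MTF-1 targets went in several directions. SELENOH, a selenoprotein whose orthologue is an MTF-1 target in mouse, fell by 0.41 (SE 0.03; limma adjusted p = 1.51e-06) and was below 0 in all 5 lines. Its fall differed between lines (limma moderated F-test, adjusted p = 0.0326), from -0.14 in HPB-ALL to -0.70 in KOPT-K. NDRG1 rose by 0.19 (SE 0.05; limma adjusted p = 0.043), a call lost without any 1 of 15 arrays (limma adjusted p up to 0.0931). PGF, a growth factor of the VEGF family, gave 0.15 ± 0.04 (limma adjusted p = 0.0549), SLC40A1, the iron exporter ferroportin, 0.10 ± 0.04 (0.109) and GCLC, an enzyme of glutathione synthesis, 0.02 ± 0.03 (0.809).

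Copper genes, included since metallothioneins also bind copper, held 12 tested members, of which limma called 0 higher (0 also at an unadjusted p under 0.05) and 2 lower. ATOX1, a copper chaperone, fell by 0.17 (SE 0.03; limma adjusted p = 0.00558), with 0.02 in CEM and values below 0 in the other 4 lines. COMMD1, a copper homeostasis protein that also acts on NF-kB, fell by 0.16 (SE 0.04; limma adjusted p = 0.0217), a call lost without KOPT-K NBD 2 (limma adjusted p = 0.0533) or HPB-ALL NBD 1 (0.0542). With the actin covariate both calls were lost, at -0.117 for ATOX1 (limma adjusted p = 0.0526) and -0.103 for COMMD1 (0.176). Of 7 stress genes that metals induce, 0 passed on average in limma, and 3 were higher at an unadjusted p under 0.05. They were HSPA6, DNAJB1, BAG3, GCLM, TXNRD1, SRXN1 and SLC7A11, with a median of 0.026 and SRXN1 largest at 0.20 ± 0.07 (limma adjusted p = 0.0836). SLC7A11, the cystine transporter, differed between lines (limma moderated F-test, adjusted p = 0.0116), at 0.70 in KOPT-K, 0.53 in T-ALL1, 0.13 in HPB-ALL, 0.01 in CEM and -0.56 in DND41. T-ALL1, with small metallothionein differences, was among the high lines for SLC7A11. Any link between the SLC7A11 and metallothionein differences was not tested.

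Glucocorticoids also induce metallothioneins, so 6 glucocorticoid-induced genes were read. SGK1, a kinase of ion transport, rose by 0.38 (SE 0.06; limma adjusted p = 0.00218) and differed between lines (limma moderated F-test, adjusted p = 0.014), at 1.31 in KOPT-K and -0.04 to 0.29 elsewhere. FKBP5, a cochaperone of the glucocorticoid receptor, fell by 0.18 (SE 0.04; limma adjusted p = 0.0153). The FKBP5 call was lost with the mean of all probe sets (-0.096, limma adjusted p = 0.467) and with the actin covariate (0.0617). TSC22D3 gave 0.10 ± 0.06, DUSP1 0.24 ± 0.08, KLF9 0.13 ± 0.06 and DDIT4 0.04 ± 0.04, none past the threshold on average. In KOPT-K alone TSC22D3 was called higher as SGK1 was, at 0.60 ± 0.13 (limma adjusted p = 0.0451), where 0.892% of all genes rose. In all, of 70 listed genes outside the set, 60 had a probe set of their own and 52 were tested, with 3 higher (5.77%) and 6 lower (11.5%) beside 2.24% and 6.14% of all genes. Without MT1HL1, whose average was known, and the other metallothioneins the counts were 2 higher (4.08%) and 6 lower (12.2%) of 49. With lines as replicates limma called 0 of all 13787 genes (lowest adjusted p = 0.126), so that fit could call none of the 52 (10 at an unadjusted p under 0.05).

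By line, limma called 1 of these 52 higher and 1 lower in CEM, where 0.392% of all genes rose and 0.74% fell. The numbers were 1 and 3 in DND41 (0.733% and 1.74% of all genes), 1 and 0 in HPB-ALL (0.138% and 0.646%), 4 and 1 in KOPT-K (0.892% and 0.384%) and 2 and 2 in T-ALL1 (1.15% and 2.3%). In HPB-ALL 5 were lower at an unadjusted p under 0.05. MT1HL1, whose rise was known beforehand, was the gene counted higher in CEM, DND41 and HPB-ALL, and 1 of the 4 in KOPT-K. Nothing is read from its place in these counts. Without the metallothioneins 49 genes were left, with 0 higher in CEM, DND41 and HPB-ALL, 3 in KOPT-K and 2 in T-ALL1. The lower counts stayed the same. The counts in T-ALL1, 4 in all beside 3.45% of all genes, moved with its arrays. Without control 1, limma called 0 (12 at an unadjusted p under 0.05) beside 1.27% of all genes, without control 2 it called 14 beside 22.6%, and without NBD 1 it called 0 beside 0.29%. With the actin covariate it called 0 beside 0.355%.

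**Figure D5:**
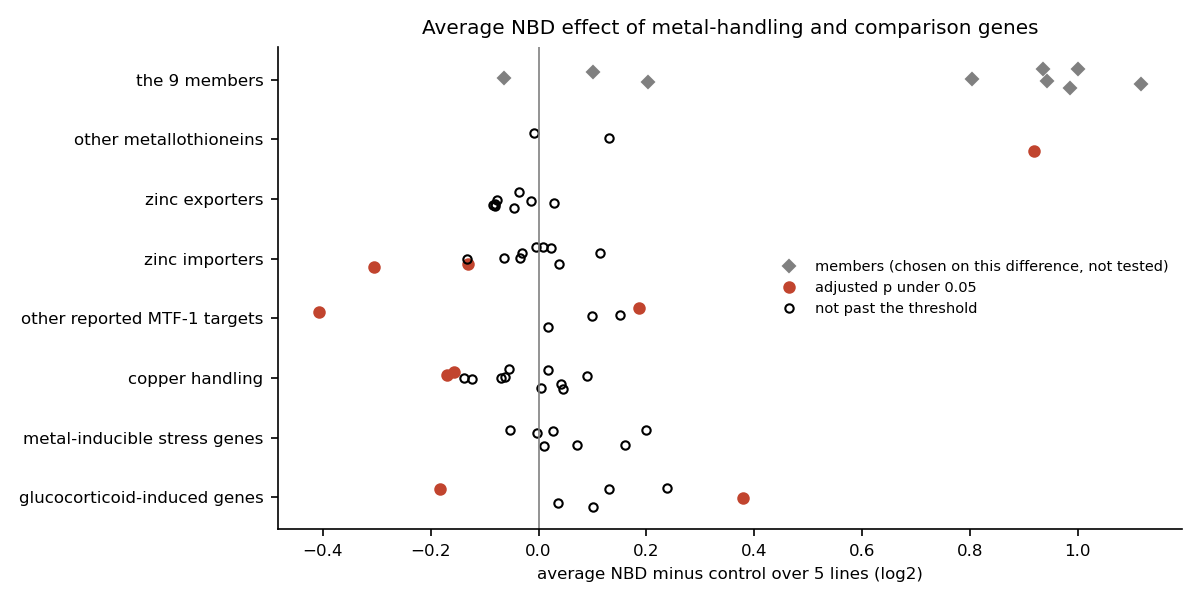
Average NBD minus control difference over the 5 lines (log2) of the 9 genes (grey diamonds, not tested) and of 52 genes in 7 lists (circles, filled red where limma's adjusted p was under 0.05). The 6 metallothioneins of the set and MT1HL1 lie at 0.80 or above, and every other gene, MT3 and MT4 included, lies between -0.41 and 0.38.

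With the members and the other metallothioneins (MT1HL1 among them) left out of the ranking, the 8 genes tested whose arrays followed the mean of the 6 metallothioneins most closely, with each line centred on its own mean, were IDI1 (Pearson r = 0.917 over 20 arrays), HMGCS1 (0.916), FAM53C (0.914), PFKFB3 (0.891), KLHL15 (0.880), NUMBL (0.879), SCD (0.872) and FDPS (0.865). Over the genes ranked, 99 in 100 had r under 0.717. Of the members, SLC30A1 had r = 0.897, MTF1 0.590 and SLC39A10 -0.066. SLC30A1 and the metallothioneins were chosen with their rise with NBD known. That choice alone can give a high r, so the value of SLC30A1 is not read against the genes ranked. HMGCS1 differed by 0.90 in CEM, 0.65 in KOPT-K, 0.41 in HPB-ALL, 0.17 in T-ALL1 and 0.13 in DND41, and IDI1 by 0.61, 0.38, 0.33, 0.19 and 0.11. The order of lines was thus that of the metallothioneins only in part, since HPB-ALL, highest for MT1X, ranked below CEM and KOPT-K for both. The points share arrays, lines and peptides, so r describes these arrays only.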

How the data were processed

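The authors' deposited table holds 1 intensity per probe set and array on a linear scale, made with RMA (robust multi-array average, no version given), per the submitters' processing notes. Log2 was taken here with no pseudocount. The decimals and mean intensities of the columns point to 2 normalization runs, which no source used here states. Of 54675 probe sets, 41097 carried 1 gene symbol, 1801 several and 11777 none in the platform annotation. Where a gene had several probe sets, the one brightest on average over all 20 arrays stood for it. It was tested if it reached the median of all values, an intensity of 31.96, on at least 2 arrays, which left 13787 of 19775 genes. Precision is limited by the 2 arrays of each group.

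Tests used lmFit and eBayes of limma 3.58.1, run in R 4.3.3, with 1 mean for each of 10 groups, 10 residual and 3.42 prior degrees of freedom, and Benjamini-Hochberg adjustment over all genes tested at 0.05. The contrasts were NBD minus control in each line and on average, an F-test of the difference between lines, and control levels inside each run. P-values measure only the spread between arrays. Counts at an unadjusted p under 0.05 have no share over all genes beside them, since that share was not counted. The procedure was tested on simulated data.

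The members, lists and tests were chosen with earlier results of these data known. Pairs of lines, and the grouping used to count them, were added after the values were seen. Named were all members and every other metallothionein measured, up to 12 listed genes past the threshold, the largest change of a list with none, up to 6 listed genes that differed between lines, and the 8 genes most like the metallothionein mean. SLC30A4, PGF, SLC40A1, GCLC, TSC22D3, DUSP1, KLF9, DDIT4 and the other stress genes were named after their values were seen. Replicate numbers were checked for pairing and did not pair the arrays (r of the deviations of NBD 1 and control 1 from their group means, -0.281 to 0.143 by line). Alternatives were filter, probe set rule, quantile normalization, median centring, prior, actin covariate, replicate block, subsets of lines, lines as replicates and leaving out each array.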

Additional observations from a re-analysis of the deposited data

Results flagged for a closer look

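The NBD minus control difference differed between lines for 6 of the 9 members and 4 of the 52 listed genes tested, by limma's moderated F-test (adjusted p given for each), where 252 of all 13787 genes (1.83%) passed. These were MT1F (8.7e-05), MT1E (0.000374), MT2A (5e-04), MT1G (0.00102), MT1X (0.00102), MT1HL1 (0.00132), MT1H (0.00391), SLC7A11 (0.0116), SGK1 (0.014) and SELENOH (0.0326). The 7 metallothioneins had large differences in CEM, HPB-ALL and KOPT-K and small ones in DND41 and T-ALL1. The other genes had other orders. SGK1 stood out in KOPT-K at 1.31, SLC7A11 was -0.56 in DND41 against 0.70 in KOPT-K, and SELENOH fell most in KOPT-K, by 0.70.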

How the results depend on the processing

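The 6 metallothioneins were chosen on their NBD difference, which was above 0 in every line. An average above 0 under other settings is therefore no separate result. Their F-tests between lines were past the threshold with every setting that kept both arrays of a group and for which that test was made, except the replicate block. In this paragraph counts of listed genes past the adjusted threshold are given with those over all genes in the same fit, since both moved. In the fit reported, 309 of all genes were higher and 847 lower on average. The ranges of calls given below for fits that leave out 1 array have no such count beside them, except in T-ALL1. Those ranges do not show whether the listed genes or the members moved more than all genes did. With the replicate block, where the numbers do not pair the arrays, limma's adjusted p was 0.0612 for MT1H and 0.0512 for MT1X, and the listed genes called were 3 lower on average (324 of all genes), 1 in CEM, and 0 in DND41 and 0 in T-ALL1 (10 and 12 at an unadjusted p under 0.05), beside 0.218%, 0.319% and 0.551% of all genes in those lines. That block also ended the ATOX1 and COMMD1 calls (limma adjusted p = 0.0558 and 0.0737). The cause of the lost calls was not tested. With the mean of all probe sets, MT1F averaged 0.747 and MT1G 0.527, SLC39A3 0.006, and 2 listed genes were called in DND41 (1.98% of all genes, against 2.47%). Without a filter 1 was called in T-ALL1 (1.33% of all genes, against 3.45%). With a trended and robust prior 5 were higher on average (438 of all genes) and 8 were called in DND41 (4.21%). Without the T-ALL1 line 7 were higher (409 of all genes). With the actin covariate 6 were higher and 2 lower on average (382 and 497 of all genes). In that fit 7 were called in DND41 (4.12%) and 0 in T-ALL1 (0.355% of all genes), where 14 had an unadjusted p under 0.05. Of the pairwise differences of the metallothioneins 18 passed, with no share over all genes counted. With T-ALL1 and KOPT-K alone 1 was higher and 1 lower (16 and 8 of all genes), with CEM, DND41 and HPB-ALL alone 5 and 3 (208 and 769), and with lines as replicates 0 and 0, as for all 13787 genes (10 of the 52 at an unadjusted p under 0.05). The cause of these moves was not tested, beyond the fewer arrays in the subsets.

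With the actin covariate the control level of T-ALL1 minus KOPT-K turned to -0.122 for MT1E, -0.037 for MT1F, -0.614 for MT1H (limma adjusted p = 0.0117), -0.114 for MT1X and -0.229 for MT2A. It also turned without T-ALL1 control 1, to -0.106 for MT1H and -0.028 for MT2A, and without KOPT-K control 1, to 0.020 for MT1G, -0.023 for MT1H and -0.019 for MT2A. Over all fits that leave out 1 array this level difference ran from -0.267 to 0.020 for MT1G, -0.106 to 0.287 for MT1H and -0.028 to 0.060 for MT2A. Leaving out 1 array gave 2 to 9 listed genes higher and 4 to 7 lower on average. By line it gave 2 to 3 calls in CEM, 0 to 7 in DND41, 1 to 1 in HPB-ALL, 3 to 7 in KOPT-K and 0 to 14 in T-ALL1, where the share of all genes called ran up to 22.6%. It gave 6 to 7 members in the F-test, 27 to 36 pairwise differences, 2 to 4 members for T-ALL1 minus KOPT-K and 8 to 9 among the other 3 lines. With 2 arrays a group, small differences such as those of MTF1 and SLC39A10 lie near the limit of what could be measured, and signal below the filter value has little order.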
